A study of Mus musculus with 12 samples.

Results

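The genes of the interleukin-1 (IL-1) family described here are Il1a, Il1b, Il1rn, Il18, Il1f6, Il1f9, Il1r2, Il1rap and Il18bp. They were chosen by their symbols, and the 9 are among 55335 genes quantified. All 9 passed the filter on low counts and were tested. The libraries came from bone marrow-derived dendritic cells (BMDCs) of C57BL/6 mice, grown from bone marrow for 6 days in GM-CSF, a myeloid growth factor. Every group carried the Rosa26-CreER transgene with both Ctcf alleles intact, which is the wild type (WT) of the study. The mice were male and female littermates of 8 to 12 weeks, and CD11c+ floating cells were positively selected with microbeads. The groups were untreated cells (WT), cells given lipopolysaccharide (LPS) from E. coli K12 at 100 ng/ml for 3 h (WTL), cells given JSH-23 at 100 µM for 3 h (WT + JSH23) and cells given JSH-23 before LPS (WTL + JSH23). LPS is a bacterial outer membrane component that engages Toll-like receptor 4, and JSH-23 is a small molecule that blocks nuclear entry of the NF-κB subunit RelA. Each group had 3 libraries, numbered 4 to 6 in WT and WTL and 1 to 3 in the JSH23 groups, and the study calls them biological replicates. The sources used here do not say whether cells without JSH-23 received its solvent, or whether these CreER cells received 4-hydroxytamoxifen, so an effect of JSH-23 and one of its solvent cannot be told apart.

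IL-1α and IL-1β, the products of Il1a and Il1b, both signal through the IL-1 receptor, which pairs a ligand-binding chain with the accessory protein encoded by Il1rap and recruits the adaptor MyD88. IL-1β and IL-18 are made as precursors that caspase-1 cleaves once an inflammasome has assembled, so that their mRNA is a separate step from their release. The family carries its own brakes: Il1rn encodes a receptor antagonist, Il1r2 a decoy receptor without a signalling domain, and Il18bp a secreted protein that captures IL-18. Il1f6 and Il1f9 encode IL-36α and IL-36γ, which use the IL-36 receptor encoded by Il1rl2 together with the same accessory protein. In dendritic cells Il1a and Il1b are textbook early targets of Toll-like receptor signalling.

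Of the 9 genes, 5 lie on chromosome 2 in GRCm38 and form 2 neighbourhoods. Il1f9 (ENSMUSG00000044103.4, chr2:24186476-24193568, + strand) and Il1f6 (ENSMUSG00000026984.4, chr2:24215418-24225702, + strand) are 21849 bp apart, and Il1rn (ENSMUSG00000026981.15, chr2:24336853-24351494, + strand) starts 111150 bp beyond Il1f6. Il1a (ENSMUSG00000027399.1, chr2:129299610-129309972, − strand) and Il1b (ENSMUSG00000027398.13, chr2:129364570-129371139, − strand) are separated by 54597 bp. Il18 (ENSMUSG00000039217.13) is at chr9:50554827-50581840 on the + strand, Il1r2 (ENSMUSG00000026073.13) at chr1:40074079-40125231 on the + strand, Il1rap (ENSMUSG00000022514.14) at chr16:26581704-26730117 on the + strand and Il18bp (ENSMUSG00000070427.4) at chr7:102014885-102018690 on the − strand. Il18 overlaps the protein-coding genes Bco2 and Tex12, and Il18bp overlaps Numa1, in each case on the opposite strand. Il1a overlaps the antisense gene Gm14023 and Il1b the antisense gene Il1bos. Il1a had fractional counts in 12 of 12 libraries and Il1rap in 4 of 12, which means that RSEM divided some of their read pairs with another gene. For Il1a that gene was Gm14023, whose fractional counts complete those of Il1a to whole numbers in each library. Values are per gene, so secreted and intracellular forms of Il1rn, or membrane and soluble forms of Il1rap, were not separated.

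RefSeq start sites on GRCm38.p6 gave 10 promoter windows of 250 bases before and 50 bases after the start for 8 of the 9 genes. Il1f6 had no window. Shown here are the 150 bases before the start for the genes that rose most with LPS (Il1a, Il1b), for the antagonist (Il1rn) and for the gene that rose most with JSH-23 (Il1f9). Capitals mark matches to 3 short motifs, which are spelled out after the sequences.
Il1a, chr2:129309973-129310122, − strand: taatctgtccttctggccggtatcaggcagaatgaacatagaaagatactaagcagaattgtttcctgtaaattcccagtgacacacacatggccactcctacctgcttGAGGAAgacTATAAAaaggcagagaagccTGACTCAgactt
Il1b, chr2:129371140-129371289, − strand: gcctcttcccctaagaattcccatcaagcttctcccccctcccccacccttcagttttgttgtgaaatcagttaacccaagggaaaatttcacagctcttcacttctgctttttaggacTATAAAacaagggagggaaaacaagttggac
Il1rn, chr2:24336710-24336859, + strand: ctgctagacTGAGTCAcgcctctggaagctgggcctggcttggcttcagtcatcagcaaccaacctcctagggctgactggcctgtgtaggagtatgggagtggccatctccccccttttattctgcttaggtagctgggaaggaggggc
Il1f9, chr2:24186326-24186475, + strand: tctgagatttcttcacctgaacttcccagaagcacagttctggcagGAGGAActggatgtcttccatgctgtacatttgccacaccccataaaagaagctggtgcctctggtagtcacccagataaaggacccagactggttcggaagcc
Il1a and Il1b share a TATA box (TATAAA) at about the same place, from −32 to −27 and from −31 to −26, where −1 is the last base before the start. The letters of the AP-1 element, which many activation signals use, are TGANTCA. They lie from −12 to −6 in Il1a and from −141 to −135 in the most upstream of the Il1rn windows. A core of the element bound by the myeloid factor PU.1, GAGGAA, lies from −41 to −36 in Il1a and from −104 to −99 in Il1f9. Both strands of each 300-base window were searched. TATA occurred in 4 of the 10 windows and in 13.6% of 32817 windows of the genome, AP-1 in 2 and 7.81%, and PU.1 in 2 and 28.3%. The interferon response element GAAANNGAAA occurred in 1 window, that of Il1rap, and in 3.43% of all windows. A κB consensus was found in 0 of the 10 windows and 8.46% of all windows. The cyclic AMP element TGACGTCA was in 0 windows and 1.79% of all. The antioxidant element TGACNNNGC, which can share letters with AP-1, was in 0 windows and 12.4% of all. These matches describe the letters of one window per start, and nothing was drawn from them about binding.

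The libraries held 24664724 to 34837847 expected counts. The cells had high levels of the dendritic cell markers Cd74 and H2-Ab1 in each group, and the summed level of 11 such markers was 21938 to 24824 TPM (a scale of transcript abundance per length). Most of that sum came from Cd74, H2-Aa and H2-Ab1 (14122, 4645 and 3590 TPM in WT), so it mainly reflects these genes. Zbtb46 was 23.5 TPM in WT. Cd209a was near 0 (group means 0.04 to 0.217 TPM) and Flt3 low (2.42 to 3.2 TPM). T, B and NK cell markers summed to at most 2.77 TPM and mast cell and basophil markers to at most 3.15 TPM, with Mcpt4 at 0. Krt5, Krt14 and Krt8 were at 0 among the epithelial markers, which summed to at most 2.32 TPM. Macrophage and neutrophil markers were present. They and the calls of dendritic cell markers are given beside the results they move with. WTL + JSH23 replicate 3 stood apart from its group, with a mean chi-square per gene of 8.175 and 9.109 against the other libraries of WTL + JSH23, compared with 2.325 to 4.495 for other replicate pairs. Results that change without it are named.

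Il1b and Il1a were among the most abundant transcripts of LPS-treated BMDCs. By mean TPM, Il1b ranked 31 of 55335 genes in WTL and 1123 in WT, and Il1a ranked 92 and 4005. In untreated cells the order differed, and the antagonist was the most abundant of the 9. Mean TPM in WT was 381 for Il1rn, 127 for Il1b, 82.0 for Il18bp, 32.2 for Il1f9 and 29.9 for Il1a. The other members had at most 11.0 TPM in WT. In WTL the mean was 3679 TPM for Il1b, 1603 TPM for Il1a and 866 TPM for Il1rn.

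**Figure D1:**
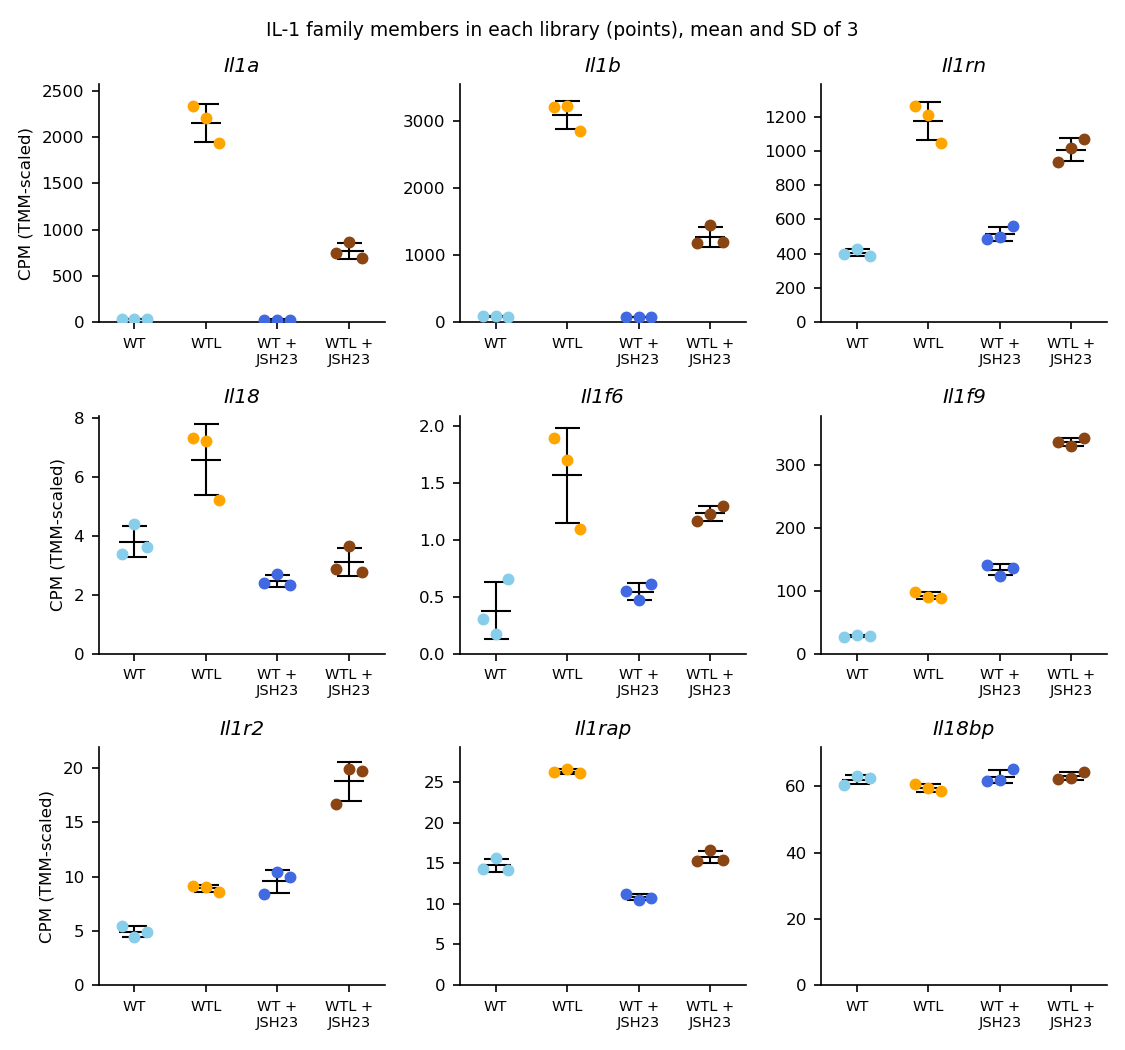
TMM-scaled counts (CPM) of the 9 genes in each library (points), with the mean (long bar) and SD (whiskers) of the 3 libraries of each group, on linear axes that start at 0 and differ between panels. Il1a and Il1b are highest in WTL, Il1f9 and Il1r2 are highest in WTL + JSH23, and Il18bp lies between 58.5 and 65.2 CPM in all libraries.

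The first comparison asked how the family responded to LPS alone. Of the 9 genes, 8 rose in WTL against WT at an adjusted p under 0.05 and 0 fell, where 31.0% of all 14357 genes tested rose and 34.7% fell. With a change of more than 2-fold also required, 5 of the 9 rose and 0 fell, against 7.36% and 9.09% of all genes. The median log2 fold change of the 9 was 1.54, and that of all genes was −0.05. The genes past 2-fold were both IL-1 ligands, the IL-36 ligands Il1f6 and Il1f9 and the receptor antagonist. Cell type markers moved in this comparison too. Of 10 dendritic cell markers tested, 8 were higher and 1 lower. Of 8 neutrophil markers tested, 4 were higher and 2 lower, with a sum over the list of 384 to 395 TPM in WT and 331 to 345 TPM in WTL. The calls are on TMM-scaled counts, whereas on log2(TPM + 1) the median gene moved by −0.29 relative to TMM. Of the most abundant neutrophil markers, Mmp8 went from 164 to 108 TPM, S100a9 from 93.8 to 101 TPM and S100a8 from 85.8 to 91.3 TPM. Of 11 macrophage markers, 3 were higher and 7 lower, with sums of 3033 to 3165 TPM and 3128 to 3207 TPM. Their part in the family's LPS response was not tested.

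Il1a was 32.3, 32.8 and 30.7 CPM in WT and 2336, 2205 and 1932 CPM in WTL. All WTL libraries were far above all WT libraries, with means of 31.9 ± 1.12 and 2158 ± 206 CPM (SD, n = 3 each). This was a 67.5-fold rise (log2 fold change 6.08, SE 0.0843, edgeR adjusted p = 1.42e-22). Il1b was 86.3, 83.3 and 82.0 CPM in WT and 3210, 3230 and 2859 CPM in WTL, again with no overlap. It rose 37.0-fold (log2 fold change 5.21, SE 0.0731, edgeR adjusted p = 1.52e-22). Counts assigned to the antisense genes rose with them but stayed low. Gm14023 was 0.285 to 0.55 CPM in WT and 3.47 to 4.33 CPM in WTL, and Il1bos was 0.0285 to 0.276 and 3.55 to 5.58 CPM. Il1a and Gm14023 had 1054.8 and 18.2 expected counts in WT replicate 4, and 60299.7 and 106.3 in WTL replicate 4. In each library the values of these genes add to a whole number, so read pairs were divided between them although they lie on opposite strands. Counting thus did not keep their strands apart, and its strand setting is not given in the sources used here. Il1b and Il1bos had whole counts in each library. The part of shared pairs in the rise of Gm14023, and of antisense counts in Il1a and Il1b, was not tested.

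Il1rn, the antagonist that occupies the IL-1 receptor without signalling, was 399, 428 and 387 CPM in WT and 1263, 1212 and 1048 CPM in WTL. It rose from a high level, 2.91-fold (log2 fold change 1.54, SE 0.0649, edgeR adjusted p = 8.74e-15). Il1f9 was 26.3, 29.1 and 28.0 CPM in WT and 98.2, 90.0 and 88.1 CPM in WTL, a 3.31-fold rise without overlap. Its neighbour Il1f6 was close to the detection limit, with 10, 6 and 19 expected counts in WT and 49, 51 and 24 in WTL. In CPM the Il1f6 libraries did not overlap (0.171 to 0.655 in WT, 1.1 to 1.9 in WTL), and its log2 fold change of 2.1 carried a large SE of 0.335 (edgeR adjusted p = 1.15e-05).

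The accessory chain, the decoy receptor and Il18 rose by less than 2-fold. Il1rap was 14.3, 15.7 and 14.2 CPM in WT and 26.2, 26.6 and 26.1 CPM in WTL, a 1.78-fold rise. Il1r2 was 5.41, 4.41 and 4.9 CPM in WT and 9.14, 9.03 and 8.56 CPM in WTL, a 1.82-fold rise. For both, every WTL library was above every WT library, with edgeR adjusted p values of 5.83e-11 and 4.24e-07. Il18 was 3.39, 4.38 and 3.62 CPM in WT and 7.32, 7.2 and 5.2 CPM in WTL. Its groups did not overlap either, although WTL replicate 6 lay near the WT libraries, and the log2 fold change was 0.8 (SE 0.142, edgeR adjusted p = 4.34e-05).

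Il18bp was the one member that did not pass. It was 60.5, 63.2 and 62.4 CPM in WT and 60.7, 59.4 and 58.5 CPM in WTL, with overlapping groups and a log2 fold change of −0.06 (SE 0.0417, edgeR adjusted p = 0.222). This result rests on the scaling. In TPM, Il18bp was 82.0 ± 1.2 in WT and 61.5 ± 1.04 in WTL, and limma on log2(TPM + 1) gave a log2 fold change of −0.41 (adjusted p = 4.78e-07), in a scale on which the median gene moved by −0.29 relative to TMM. Upper quartile scaling also gave a pass, at −0.14 (edgeR adjusted p = 0.00519).

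With JSH-23 given first, LPS still raised most of the family. In WTL + JSH23 against WT + JSH23, 7 of the 9 genes rose at an adjusted p under 0.05 and 0 fell, against 27.4% and 27.1% of all genes. More than 2-fold higher were 4 of the 9, namely Il1a, Il1b, Il1f9 and Il1f6, and 0 were lower, against 5.85% and 4.49% of all genes. The median was 0.97, with −0.02 for all genes. Here 8 of 10 dendritic cell markers tested were higher and 0 lower. Of 8 neutrophil markers, 0 were higher and 2 lower (sums of 332 to 357 TPM in WT + JSH23 and 279 to 299 TPM in WTL + JSH23). Of 11 macrophage markers, 3 were higher and 6 lower (2447 to 2488 and 2738 to 2878 TPM). The part of these markers was not tested. Il18bp, at a log2 fold change of 0.0 (edgeR adjusted p = 0.955), was a called fall with limma on log2(TPM + 1) (−0.18, adjusted p = 0.000826), where the median gene moved by −0.18 relative to TMM. Il1a was 24.8, 26.3 and 27.2 CPM in WT + JSH23 and 744, 861 and 689 CPM in WTL + JSH23, a 29.3-fold rise (log2 fold change 4.87, SE 0.0822). Il1b was 73.4, 78.1 and 74.0 CPM and 1184, 1450 and 1191 CPM, a 17.0-fold rise (log2 fold change 4.08, SE 0.0703). The edgeR adjusted p was 5.59e-21 for both, and no library of one group reached the other.

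Il1f9 was 140, 123 and 136 CPM in WT + JSH23 and 336, 330 and 343 CPM in WTL + JSH23, a 2.53-fold rise from a baseline that was itself raised. Il1f6 had 18, 13 and 18 expected counts in WT + JSH23 and 33, 31 and 30 in WTL + JSH23 (log2 fold change 1.16, SE 0.329, edgeR adjusted p = 0.00497). With limma on log2(TPM + 0.1) Il1f6 did not pass (adjusted p = 0.0668). Il1rn and Il1r2 rose 1.96-fold each and Il1rap 1.46-fold, and the groups did not overlap for any of these genes. Il18 was 2.4, 2.68 and 2.31 CPM in WT + JSH23 and 2.87, 3.66 and 2.77 CPM in WTL + JSH23. The Il18 libraries did not overlap, but the change did not pass (log2 fold change 0.33, SE 0.17, edgeR adjusted p = 0.105).

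**Figure D2:**
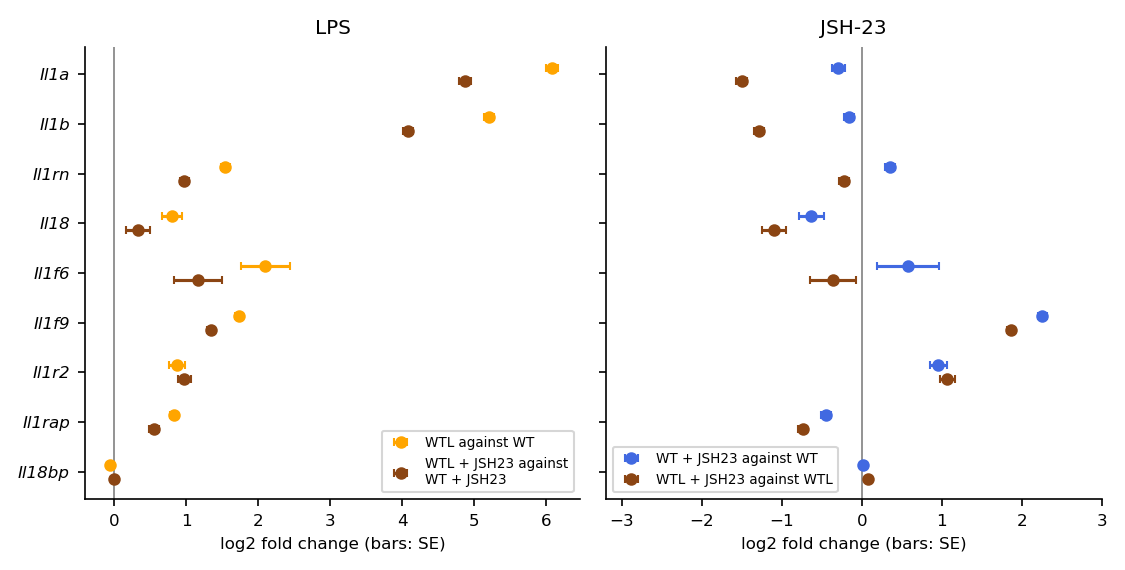
Log2 fold changes of the 9 genes (points) with their SE (bars) from the edgeR fit, for LPS with and without JSH-23 (left) and for JSH-23 with and without LPS (right). On the right, Il1f9 and Il1r2 lie above 0 in both comparisons (1.87 to 2.26 and 0.96 to 1.07), while Il1a and Il1b lie near −1.5 and −1.28 under LPS and nearer to 0 without it.

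Whether the LPS response differed with JSH-23 was tested as the interaction, the log2 LPS change with JSH-23 minus that without. It passed for 5 of the 9 genes, each with a smaller fold response after JSH-23, and for 0 with a larger one. Among all genes 8.44% had a lower and 9.54% a higher LPS change. The median over the 9 was −0.46, with 0.03 for all genes. The interaction was also lower for 3 of 8 neutrophil markers and higher for 0, and among 11 macrophage markers it was higher for 2 and lower for 2. Among 10 dendritic cell markers it was higher for 1 and lower for 2. Their part in it was not tested. The interaction was −1.2 for Il1a (SE 0.108, edgeR adjusted p = 2.24e-07) and −1.12 for Il1b (SE 0.0905, edgeR adjusted p = 5.8e-08), and these were the 2 that exceeded 2-fold. It was −0.57 for Il1rn (SE 0.09, edgeR adjusted p = 0.00015) and −0.39 for Il1f9 (SE 0.0746, edgeR adjusted p = 0.00096), of which the latter did not pass with limma on log2(TPM + 1) (−0.23, adjusted p = 0.0518). For Il1rap it was −0.29 (SE 0.0888, edgeR adjusted p = 0.0287), and the call was lost when any of 7 of the 12 libraries was removed, up to an adjusted p of 0.0813 after removal of WT + JSH23 replicate 1.

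The interaction did not pass for Il18 (−0.46, SE 0.222, edgeR adjusted p = 0.162), Il1f6 (−0.94, SE 0.482, edgeR adjusted p = 0.195), Il1r2 (0.11, SE 0.141, edgeR adjusted p = 0.665) or Il18bp (0.06, SE 0.0589, edgeR adjusted p = 0.526). For Il18bp it passed with limma on log2(TPM + 1) (0.23, adjusted p = 0.0107), on which scale the median gene moved by 0.11. Removing WTL replicate 6 brought Il18 past the threshold (adjusted p = 0.0492), and removing WT replicate 6 did so for Il1f6 (adjusted p = 0.0328). Fold and absolute rise told different things for Il1f9. Its rise with LPS was 64.3 CPM without JSH-23 (59.0 to 71.9 over the 9 pairs of libraries) and 203 CPM with it (190 to 220), so that the smaller fold went with a larger rise in CPM. For Il1a the rise was 2126 CPM without JSH-23 and 739 CPM with it, and for Il1b 3016 and 1200 CPM, with no overlap of the pairs. The rises in CPM were compared after seeing the data.

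The level reached under LPS was then compared with and without JSH-23. In WTL + JSH23 against WTL, 2 of the 9 genes were higher and 5 lower at an adjusted p under 0.05, against 24.5% and 24.2% of all genes. Past 2-fold, 2 were higher (Il1f9, Il1r2) and 3 lower (Il1a, Il1b, Il18), against 3.75% and 3.25% of all genes. The median log2 fold change was −0.36 over the 9 and 0.02 over all genes. The family thus split, with the IL-1 ligands, IL-18 and the accessory chain on one side and IL-36γ and the decoy receptor on the other.

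Il1a fell 2.82-fold with JSH-23 under LPS (log2 fold change −1.5, SE 0.0665, edgeR adjusted p = 9.75e-14) and Il1b 2.43-fold (−1.28, SE 0.0611, edgeR adjusted p = 2.81e-13). The highest WTL + JSH23 libraries, 861 CPM for Il1a and 1450 CPM for Il1b, were below the lowest WTL libraries, 1932 and 2859 CPM. Even so, both genes stayed far above untreated cells, 23.9-fold for Il1a and 15.2-fold for Il1b in WTL + JSH23 against WT. Il18 fell 2.14-fold (log2 fold change −1.1, SE 0.151, edgeR adjusted p = 3.26e-06), to a level that did not differ from WT beyond its spread (edgeR adjusted p = 0.108). Il1rap was 15.3, 16.6 and 15.4 CPM in WTL + JSH23, a 1.67-fold fall from WTL, and likewise did not differ from WT (log2 fold change 0.09, SE 0.0628, edgeR adjusted p = 0.205).

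Il1rn changed little by comparison. It was 938, 1015 and 1070 CPM in WTL + JSH23, overlapping the 1048 to 1263 CPM of WTL, with a log2 fold change of −0.22 (SE 0.0633, edgeR adjusted p = 0.00626). The call did not hold when WTL replicate 4 (adjusted p = 0.0564) or replicate 1 of WTL + JSH23 (adjusted p = 0.054) was left out, or with limma on log2(TPM + 1) (adjusted p = 0.196). Il1f6 did not pass (log2 fold change −0.36, SE 0.287, edgeR adjusted p = 0.316), and its groups overlapped. Il18bp was 62.3, 62.4 and 64.4 CPM in WTL + JSH23, above the WTL libraries, but the log2 fold change of 0.08 did not pass (SE 0.0423, edgeR adjusted p = 0.117). With limma on log2(TPM + 1) Il18bp did pass, at 0.221 (adjusted p = 0.000217).

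Il1f9 went the other way, 3.65-fold higher in WTL + JSH23 than in WTL (log2 fold change 1.87, SE 0.0507, edgeR adjusted p = 8.6e-17). Its lowest library with both agents, at 330 CPM, was above the highest WTL library, at 98.2 CPM. By mean TPM it ranked 453 of 55335 genes in WTL + JSH23 and 1587 in WTL. Il1r2 was 16.7, 19.9 and 19.7 CPM in WTL + JSH23, 2.1-fold above WTL and without overlap (log2 fold change 1.07, SE 0.0926, edgeR adjusted p = 3.45e-09). It was a low-abundance transcript, with 457 to 499 expected counts in these libraries.

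Cell type markers moved in the same comparison, in which 24.5% of all genes were higher and 24.2% lower. Of 10 dendritic cell markers tested, 6 were lower and 2 higher. Of 8 neutrophil markers tested, 8 were lower with JSH-23 under LPS, and their summed level, over the list of 12, was 331 to 345 TPM in WTL and 279 to 299 TPM in WTL + JSH23. Most of that sum came from Mmp8 (108 and 97.1 TPM in these groups), S100a9 (101 and 76.1 TPM) and S100a8 (91.3 and 81.6 TPM). Ngp was 20.5 and 17.3 TPM and Csf3r 10.2 and 8.45 TPM, whereas Ly6g (0.353 and 0.233 TPM) and Cxcr2 (0.0733 and 0.02 TPM) were near 0. Macrophage markers summed to 3128 to 3207 TPM in WTL and 2738 to 2878 TPM in WTL + JSH23, with 8 of 11 lower and 2 higher. Their part in the lower Il1a, Il1b, Il18 and Il1rap was not tested. In bulk libraries fewer cells of a type and less RNA per cell cannot be told apart.

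In resting cells the question was whether JSH-23 moved the family by itself. In WT + JSH23 against WT, 3 of the 9 genes were higher (Il1f9, Il1r2, Il1rn) and 3 lower (Il18, Il1rap, Il1a) at an adjusted p under 0.05, against 18.8% and 22.1% of all genes. Past 2-fold, 1 was higher and 0 lower, against 2.43% and 2.94% of all genes, and the median was 0.02 over the 9 and −0.01 over all genes. The gene past 2-fold was Il1f9, at 4.78-fold (log2 fold change 2.26, SE 0.0558, edgeR adjusted p = 2.47e-17). Its level with JSH-23 alone, 133 ± 9.01 CPM, was above that with LPS alone, 92.1 ± 5.35 CPM (SD, n = 3 each), a difference of 0.53 on the log2 scale (edgeR adjusted p = 7.04e-09).

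Il1r2 was 8.36, 10.4 and 9.94 CPM with JSH-23 alone, 1.95-fold above WT (edgeR adjusted p = 1.49e-07), and it passed 2-fold when WT replicate 4 (log2 fold change 1.04) or WT + JSH23 replicate 1 (1.05) was left out, so that 2 of the 9 genes were then called. Its level did not differ from that with LPS alone beyond the spread (log2 fold change −0.1 for WTL against WT + JSH23, SE 0.0986, edgeR adjusted p = 0.403). Il1rn was 483, 499 and 560 CPM, 1.27-fold above WT (edgeR adjusted p = 0.000147). Il18 was 1.55-fold, Il1rap 1.37-fold and Il1a 1.22-fold lower than in WT, each without overlap. Il1b was lower by 0.16 on the log2 scale and did not pass (SE 0.0673, edgeR adjusted p = 0.0664), although it passed when WTL + JSH23 replicate 2 (adjusted p = 0.0117) or the library that stood apart, replicate 3 (adjusted p = 0.043), was left out. Il1f6 did not pass (log2 fold change 0.58, SE 0.388, edgeR adjusted p = 0.257) unless WT replicate 6 was removed (log2 fold change 1.2, adjusted p = 0.0256). Macrophage markers summed to 3033 to 3165 TPM in WT and 2447 to 2488 TPM in WT + JSH23 (7 of 11 lower, 2 higher), and neutrophil markers to 384 to 395 and 332 to 357 TPM (3 of 8 tested lower, 0 higher). Of 10 dendritic cell markers tested, 4 were lower and 3 higher. Their part in these changes was not tested.

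The order of the 4 groups therefore differed between members. Il1a and Il1b ran WTL, WTL + JSH23, WT, WT + JSH23 from the highest, and for Il1b the last pair did not differ beyond the spread. Il1rap and Il18 began with WTL, and for both WTL + JSH23 and WT did not differ. Il1f9 and Il1r2 began with WTL + JSH23, then WT + JSH23, WTL and WT, and for Il1r2 the middle pair did not differ. In WTL + JSH23 against WT, Il1f9 was 12.1-fold and Il1r2 3.82-fold higher. Il1rn ran WTL, WTL + JSH23, WT + JSH23, WT. By TPM the order was the same for 7 of the 9 genes, the exceptions being Il1rap and Il18bp, and for Il18bp 0 neighbouring pairs differed in CPM.

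Ratios within a library set a ligand against its antagonist on the per-length TPM scale. The Il1b to Il1rn ratio was 0.343, 0.314 and 0.345 in WT and 4.1, 4.29 and 4.38 in WTL, so that the antagonist transcript exceeded the ligand before LPS and the ligand exceeded the antagonist after it. With JSH-23 the ratio was 0.253, 0.254 and 0.228 without LPS and 2.06, 2.33 and 1.78 with it. None of the 4 groups overlapped. LPS raised the log2 ratio by 3.37 on average and JSH-23 lowered it by a mean difference of −0.75, each with p = 0.005 in an exact two-sided permutation test within strata, the smallest p that its 400 arrangements allow (adjusted p = 0.00667 over 8 ratio tests).

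The Il1a to Il1b ratio was 0.236 in WT, 0.435 in WTL, 0.21 in WT + JSH23 and 0.376 in WTL + JSH23. It rose with LPS by 0.86 and fell with JSH-23 by 0.19 on the log2 scale (exact permutation p = 0.005 for each). The Il18 to Il18bp ratio was 0.134 ± 0.0237 in WT, 0.254 ± 0.0536 in WTL, 0.0864 ± 0.0163 in WT + JSH23 and 0.11 ± 0.0204 in WTL + JSH23 (SD, n = 3), so transcripts of the binding protein outnumbered those of its ligand in each group. Averaged over cells with and without JSH-23, LPS raised this ratio by 0.63 on the log2 scale (exact permutation p = 0.01, adjusted p = 0.0114). The mean log2 ratio went from −2.91 to −2.0 without JSH-23. With JSH-23 it went from −3.55 to −3.2, and the libraries of those groups overlapped. JSH-23 lowered the ratio by a mean difference of −0.92 (exact permutation p = 0.005). The Il1f9 to Il1f6 ratio was 35.4 ± 28.1 in WT and 24.8 ± 10.0 in WTL, and 100 ± 16.7 and 106 ± 0.948 in the groups with JSH-23. The neighbouring IL-36 genes thus moved apart with JSH-23 (log2 difference 1.99, exact permutation p = 0.005), while an effect of LPS on their ratio was not detectable with the counts of Il1f6 (−0.08, exact permutation p = 0.805).

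**Figure D3:**
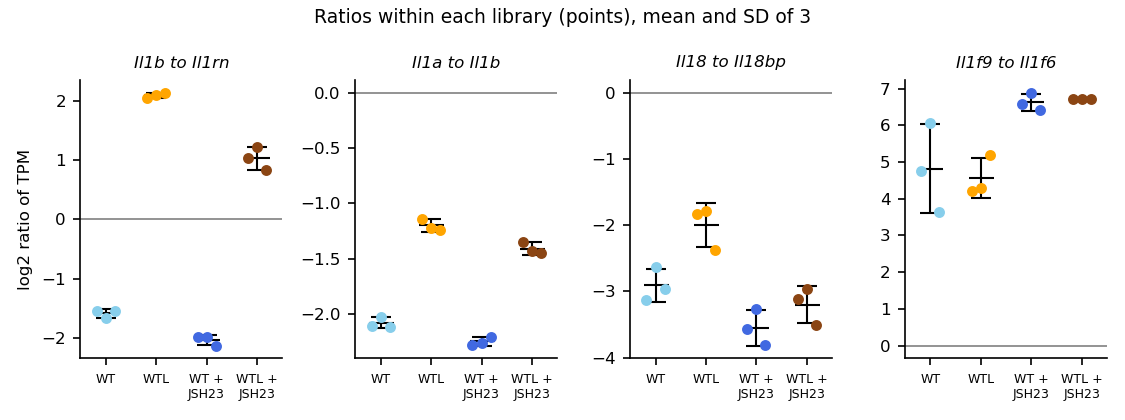
Log2 ratio of TPM between pairs of members in each library (points), with the mean (long bar) and SD (whiskers) of the 3 libraries of each group; the grey line at 0 marks equal TPM. Il1b to Il1rn lies below 0 without LPS and above 0 with it, from 1.04, 1.22 and 0.83 in WTL + JSH23 to 2.04, 2.1 and 2.13 in WTL.

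The members' profiles were also compared over the 12 libraries, which share 4 conditions, so the correlations describe group patterns. Il1a and Il1b had a Pearson r of 1.0 in log2 CPM, and Il1rn had an r of 0.97 with Il1b and 0.96 with Il1a. Il1f9 and Il1r2, which lie on different chromosomes, had an r of 0.97, and Il18 and Il1rap one of 0.93, whereas Il1f9 and its neighbour Il1f6 had 0.61. Among 10749 protein-coding genes, the profiles most like Il1a after Il1b were Snn and Itgav (r 0.999 each), and those most like Il1b after Il1a were Tmem39a and Tnip1 (0.999 each). Those most like Il1rn were Agfg1 (0.997), Cpeb4 and Cd86 (0.996 each). Il1f9 was closest to Abcc1 (0.998), Hsp90aa1 and Riok3 (0.994 each), and Il1r2 to Abcb1b (0.989), Mllt11 (0.985) and Kcmf1 (0.984). Il1rap was closest to Ch25h (0.996), Tox4 and Serpinb2 (0.995 each), and Il18 to Dazap2 (0.982), Khdrbs1 (0.976) and Arcn1 (0.974). The best matches of Il1f6 (Ccdc122 and Rnf40 0.944, Fzd7 0.939) and Il18bp (Fam149b and Cdip1 0.872, Mmaa 0.871) were looser.

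Other ligands and receptors of the family were mostly low. Of 12, 6 were tested. Il1f5, Il1f8, Il1f10, Il1rl1, Il1rapl1 and Il1rapl2 did not pass the filter on low counts. With LPS alone 1 rose and 3 fell, against 31.0% and 34.7% of all genes. Il1r1, the signalling receptor for IL-1, rose from 1.16 ± 0.117 to 2.11 ± 0.185 CPM, and the inhibitory receptor Sigirr fell from 5.4 ± 0.131 to 1.94 ± 0.312 CPM (SD, n = 3). The IL-18 receptor chains Il18r1 and Il18rap fell by 1.16 and 0.94 on the log2 scale. With LPS after JSH-23, 2 rose (Il33 and Il1r1) and 3 fell (Il18r1, Il18rap and Sigirr), against 27.4% and 27.1% of all genes. With JSH-23 under LPS 2 were higher and 0 lower, against 24.5% and 24.2% of all genes. The higher ones were Il33, which encodes an alarmin, and Sigirr (log2 fold changes 1.59 and 0.79). Il33 was near the detection limit, with mean CPM of 0.211 in WT, 0.402 in WTL, 0.63 in WT + JSH23 and 1.21 in WTL + JSH23. With JSH-23 alone Il33, Il1r1 and Sigirr were higher and Il1rl2, the IL-36 receptor, was lower (log2 fold change −0.48). Of all genes 18.8% were higher and 22.1% lower in that comparison. The interaction passed for 0 of the 6 with edgeR and with DESeq2, and for 2 at an unadjusted edgeR p under 0.05, namely Sigirr (0.49) and Il1rl2 (0.36). Among all genes it passed upward for 9.54% and downward for 8.44% with edgeR.

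The IL-1 receptor signalling list (16 of 16 tested) held 10 genes that rose and 4 that fell with LPS alone, with a median of 0.41, against 31.0% and 34.7% of all genes and a median of −0.05. After JSH-23 the numbers were 11 and 4, against 27.4% and 27.1% of all genes. Peli1, a ubiquitin ligase of this pathway, rose from 86.1 ± 4.36 to 290 ± 11.4 CPM, and Irak3, a brake on the pathway, from 56.0 ± 3.46 to 127 ± 5.5 CPM (SD, n = 3). Tab2 rose by a log2 fold change of 1.0, while Tab1, also a subunit of TAK1 complexes, fell by 1.54, Peli2 by 0.86 and Irak1 by 0.38. JSH-23 under LPS left 6 genes higher and 7 lower, against 24.5% and 24.2% of all genes. Peli1 (−0.81), Irak3 (−0.76) and Tab2 (−0.24) were lower, and Tab1 (0.39), Irak1 (0.32) and Peli2 (0.29) were higher. Myd88 fell most, with log2 fold changes of −1.03 under LPS and −0.83 with JSH-23 alone. It was the 1 gene of the list past 2-fold under LPS. With JSH-23 alone 2 were higher and 8 lower, against 18.8% and 22.1% of all genes. The interaction passed upward for Tab1 (0.56), Peli3 (0.56) and Peli2 (0.43) and downward for Peli1 (−0.38), Irak2 (−0.23), Ube2n (−0.21) and the adaptor gene Myd88 (−0.2), of which Peli3, Irak2, Ube2n and Myd88 were named after their values were seen. Over all genes the interaction passed upward for 9.54% and downward for 8.44%.

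The list of processing and release (16 of 16 tested) had 5 genes higher and 6 lower with LPS alone, with a median of −0.03, against 31.0% and 34.7% of all genes and a median of −0.05. Nlrp3, the sensor of an inflammasome, rose from 92.9 ± 1.22 to 673 ± 24.8 CPM, and Mefv, which encodes pyrin, from 88.2 ± 2.17 to 298 ± 1.48 CPM (SD, n = 3). Casp4, the mouse caspase-11 gene, rose by a log2 fold change of 0.91. P2rx7, an ATP-gated channel that can trigger NLRP3, fell by 1.62, Txnip by 0.76 and Nek7, a partner of NLRP3, by 0.55. After JSH-23 LPS raised 6 and lowered 8, against 27.4% and 27.1% of all genes. With JSH-23 under LPS 1 gene was higher and 13 were lower, with a median of −0.45, against 24.5% and 24.2% of all genes and a median of 0.02. With JSH-23 alone 2 were higher and 13 lower, with a median of −0.54, against 18.8% and 22.1% of all genes and a median of −0.01. The higher genes, named after their values were seen, were Capn2 under LPS (log2 fold change 0.34) and Capn2 and Gsdme without it (0.47 each). Txnip fell most, by 2.19 under LPS and 2.24 without, and Mefv fell by 1.05 and 1.21. P2rx7 had log2 fold changes of −0.54 under LPS and −1.24 without. Nlrp3 was 0.64 and 0.65 lower on the log2 scale, and its LPS response was alike on the log2 scale, 2.86 without and 2.87 with JSH-23, with an interaction of 0.02 (SE 0.06, edgeR adjusted p = 0.896). The interaction passed for 3 genes upward (P2rx7 0.69, Nek7 0.18 and, named after its value was seen, Nlrc4 0.4) and 1 downward (Casp4 −0.17). The shares of all genes were 9.54% upward and 8.44% downward.

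**Figure D4:**
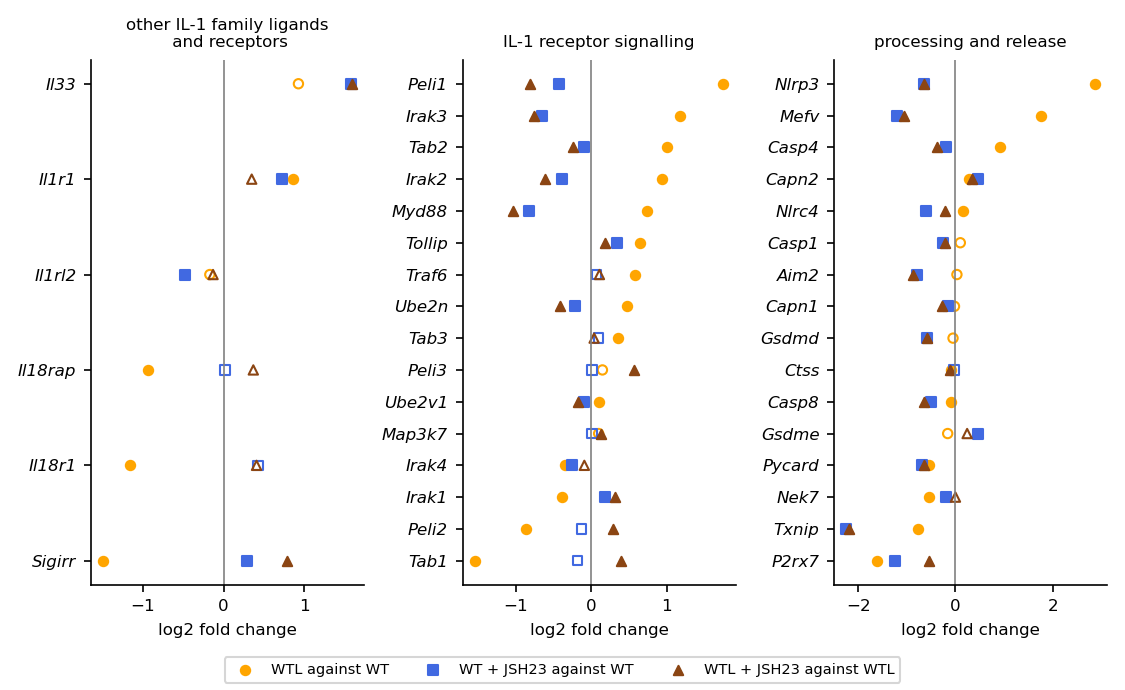
Log2 fold changes of the tested genes of 3 lists around the IL-1 family, sorted by the change with LPS alone; filled symbols passed an edgeR adjusted p of 0.05 and open symbols did not. In the right panel most JSH-23 symbols lie left of 0 (13 of 16 genes lower under LPS), while LPS moved genes both ways.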

How the data were processed

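RNA-seq of 12 libraries of mouse BMDCs was analysed from the deposited gene tables. According to the methods of the study and the submitters' processing notes, the authors trimmed the reads, aligned them to mm10 with STAR (version 2.6.0c in those notes) and quantified genes with RSEM. The GENCODE release was not given in the sources used here. The authors' deposited expected counts are read pairs assigned to a gene, with pairs matching several genes divided by RSEM, and they were not normalized between libraries. The deposited TPM values were made by the authors from these counts and the effective transcript lengths. The labels and the methods name different RNA selection kits, and which applied was not settled.

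Expected counts were rounded. The filterByExpr function of edgeR 4.0.16 (R 4.3.3) kept 14357 genes. TMM scaling and a quasi-likelihood F-test of edgeR with one mean per group, fitted to the 12 libraries with 8 residual degrees of freedom, gave the log2 fold changes. The SE is the absolute change over the square root of F. Benjamini-Hochberg adjustment covered all genes tested, and every adjusted p of a gene in the text is from this fit unless another tool is named. CPM is the count over the TMM-scaled library size on one common scale. Ratios of TPM were tested by exact two-sided permutation within strata (SciPy 1.17.1 and Python 3.11.15 were used). Totals were 24664724 to 34837847 expected counts per library, TMM factors 0.859 to 1.12. Intervals from these totals would cover counting error alone, and none is given. Nothing in the labels names batches.

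Genes were named from GENCODE M21 (GRCm38), in which 55154 of 55335 identifiers were found without the version suffix. The 9 genes described were all named, as were all 12 genes of a list of other IL-1 family ligands and receptors. For the lists of IL-1 receptor signalling and of processing and release, the rule named the 3 largest rises and the 3 largest falls with LPS alone (WTL against WT) among genes with an adjusted p under 0.05 whose higher group averaged 1 CPM or more. For each of the 9 genes the 3 protein-coding genes with the highest correlation were also named. The genes and lists were chosen with earlier results of these data known. Alternatives were DESeq2 1.42.0, 2 other scalings, 2 other filters, limma 3.58.1 on log2(TPM + 1) and log2(TPM + 0.1), other thresholds, a replicate block and leaving out each library. A comparison of rises in CPM was added after seeing the data.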

Additional observations from a re-analysis of the deposited data

Results flagged for a closer look

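For 5 genes of the family the LPS change after JSH-23 differed from that without it by the test of the interaction, which is why they are listed here. The values on the log2 scale were −1.2 for Il1a, −1.12 for Il1b, −0.57 for Il1rn, −0.39 for Il1f9 and −0.29 for Il1rap, each a smaller fold response after JSH-23. For Il1f9 the rise in CPM was larger with JSH-23 by 139 CPM, and for the other 4 it was smaller.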

How the results depend on the processing

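Numbers of calls are given in the order LPS without JSH-23, LPS with JSH-23, JSH-23 under LPS and JSH-23 without LPS. At an adjusted p alone the members called were 8, 7, 7 and 6, and all genes called were 9437, 7828, 6994 and 5881. With limma on log2(TPM + 1) all genes called were 1345, 613, 404 and 318, with a minimum mean of 1 CPM 511 in the last comparison, and with a 2-fold threshold the interaction held 2 members and 192 genes. The percentage of calls that were higher shifted with TPM from 44.7% to 30.0% for LPS alone and from 53.1% to 79.5% for the interaction, where DESeq2 gave 41.1%. On log2(TPM + 1) the median gene moved by −0.29, −0.18, 0.11 and 0.0 relative to TMM. Leaving out one library gave 4 to 6 members called for LPS with JSH-23 and for the interaction, 1 to 2 for JSH-23 without LPS, and −0.38 to 0.23 for the LPS change of the Il1f9 to Il1f6 log2 ratio, which turned to 0.23 without WT replicate 5 and 0.01 without WTL replicate 4.

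Changes of sign among single genes were those of Il18bp and of Il1f9. For LPS with JSH-23 Il18bp gave −0.081 with upper quartile scaling, −0.0 without a filter, and −0.179 and −0.181 with limma at pseudocounts of 1 and 0.1 (adjusted p = 0.000826 and 0.000951, a called fall). It gave −0.013 and −0.007 without WT + JSH23 replicates 1 and 2. Without WTL + JSH23 replicate 3, the library that stood apart, it gave −0.012. The range over fits that left out one library went up to 0.029. For JSH-23 without LPS it gave −0.01 with limma and −0.005 without WT + JSH23 replicate 3, up to 0.037 without replicate 1. The Il1f9 interaction turned to 139 when taken as the difference of rises in CPM. The Il1rap interaction did not pass without a filter (adjusted p = 0.0802) or with limma (0.359 and 0.423), and that of Il1f9 did not with limma on log2(TPM + 1) (0.0518). Il1b with JSH-23 alone passed without a filter (0.00286), and the Il18bp interaction passed with limma (0.0107 and 0.0119). The cause of these changes was not tested. The minimum of 1 CPM left out Il1f6.

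WT and WTL share numbers 4 to 6 and the JSH23 groups 1 to 3. Deviations of libraries with the same number had correlations of 0.014 to 0.061, and those with different numbers −0.056 to 0.035. The sources used here do not say whether the numbers mark pairs, and these values do not settle it. The main fit did not pair them. With a replicate block 5, 4 and 5 members and 2359, 1484 and 2968 genes were called for LPS without JSH-23, LPS with JSH-23 and the interaction. The JSH-23 comparisons share no number and could not be blocked. Depth limits Il1f6, with 6 to 51 expected counts per library.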
